A study of Homo sapiens with 2 samples.

Results

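The 39 protein-coding genes of the human HOXA, HOXB, HOXC and HOXD clusters were followed in HK-2, a human cell line established from proximal tubule cells of normal kidney. Members were every gene identifier of the deposited count tables that maps to a protein-coding symbol made of HOXA, HOXB, HOXC or HOXD and a number. They are 39 of 58302 identifiers. Of these, 36 had at least 1 count and 29 reached a CPM (scaled share of the library's counts) of 1 in at least 1 library, the minimum used here for calling a gene measured, against 13231 measured genes in all. The cells had been grown in medium with 10% fetal bovine serum and infected for 24 h with an adenovirus. In the group labelled Ad-GFP the virus carried green fluorescent protein, and in the group labelled Ad-Bmal1 its cargo was a BMAL1 open reading frame. BMAL1 is a circadian activator that works as a dimer with CLOCK. The sources used here give neither the promoter that drove the transgenes nor the species of the BMAL1 sequence. Each group is 1 library of messenger RNA, so no difference has a replicate check and no p-value can be given. Every difference is the ratio of scaled counts, the library labelled Ad-Bmal1 over the library labelled Ad-GFP, with an exact 95% Clopper-Pearson interval that covers counting error only.

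HOX genes encode homeodomain transcription factors that give cells their position along the body axis. Within a cluster they lie in a row, the genes at the 3′ end acting in the hindbrain and neck and those at the 5′ end in the trunk, limbs and urogenital tract, and members at the same place in different clusters are called paralogs and share a number. HOX proteins bind DNA together with TALE cofactors of the PBX, MEIS and PKNOX families, and trithorax (MLL) and Polycomb complexes keep the clusters active or silent after the embryo has set them. In the developing kidney, the HOX10 and HOX11 paralogs pattern the metanephric mesenchyme, and adult cells keep much of the positional HOX pattern they were given.

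The libraries held 20032652 counts (Ad-GFP) and 20051735 counts (Ad-Bmal1), so 1 CPM was worth 20.3 and 19.8 counts after scaling. BMAL1 itself (ENSG00000133794) went against the label. Its counts were 204 (Ad-GFP) and 133 (Ad-Bmal1), a ratio of 0.667 (interval 0.532 to 0.834), and every direction below follows labels that BMAL1 counts did not bear out. Ad-GFP and Ad-Bmal1 below therefore mean only the libraries labelled so. The labels describe the line as "human kidney 2" in Ad-GFP and "human kidney 3" in Ad-Bmal1. Of 12 proximal tubule markers 3 were measured, GGT1, SLC3A1 and PDZK1, while LRP2, SLC22A6, SLC22A8 and SLC13A1 had no count in either library. The markers of the tubule summed to 242 CPM in Ad-GFP and 257 CPM in Ad-Bmal1, mostly from GGT1 (4473 and 4881 counts), while PDZK1 was lower with 344 and 148 counts (0.440, 0.361 to 0.535), and those of epithelium in general (5 of 6 measured) to 2099 and 1895 CPM. Fibroblast markers (4 of 7 measured, mostly COL1A1, with COL3A1 and PDGFRA at 0 or 1 count) summed to 79.3 and 100.4 CPM, podocyte markers (2 of 4 measured) to 129 and 132 CPM, and distal nephron markers (2 of 7 measured, UMOD and AQP2 at 0) to 2.22 and 2.88 CPM. Endothelial markers (1 of 5 measured, TIE1) summed to 1.53 and 0.606 CPM, and leukocyte markers (1 of 5 measured, CSF1R, with PTPRC, CD68, LYZ and CD3E at 0) to 21.4 and 20.5 CPM. The part of these levels in the HOX differences was not tested. In RNA from bulk cells, fewer cells expressing a gene and less RNA per cell cannot be told apart.

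HOX RNA as a whole was at nearly the same level in the 2 libraries, while single members differed. All members together had 6490 counts in Ad-GFP and 6209 in Ad-Bmal1, 0.0324% and 0.0310% of all counts, and a ratio of 0.979 (interval 0.945 to 1.014). HOXA3 had the largest ratio, 1.73, and HOXC4, HOXA5 and HOXA9 those with the smallest among the members whose intervals excluded 1, at 0.390, 0.667 and 0.729. Of the 29 measured members, 26 lay within 1.5-fold, and for 19 the interval included 1. The interval lay above 1 for 4 members (HOXA3, HOXA7 and HOXB7 among them), or 13.8% of those measured, where 23.8% of all measured genes did so. It lay below 1 for 6 members (HOXA5, HOXA9, HOXB2, HOXB3, HOXB13 and HOXC4), or 20.7%, against 21.6% of all measured genes. Among the 8239 genes whose counts fell within the range of the measured HOX genes (58 to 1743 counts over both libraries), the same shares were 17.2% and 19.1%. The shares among HOX members were near these backgrounds or below them, and are read as no result about the members. A difference of at least 2-fold with an interval that excluded 1 was met by 1 member, HOXC4, which was lower (1.74% of all measured genes were), and by no member in the higher direction (1.13%; 0.898% within the count range, where 1.2% were lower). Ratios were below 1 for 19 of the 29 and above 1 for 10, where 49.6% of all measured genes were below 1 and 50.4% above. The median log2 ratio of the measured members was -0.09, beside 0.0031 over all measured genes. The HOX median was 0.19 over the members that reached 10 CPM, and -0.0016 once the trend of the log2 ratio on transcript length, fitted over all measured genes, was removed. It has therefore no settled sign.

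**Figure D1:**
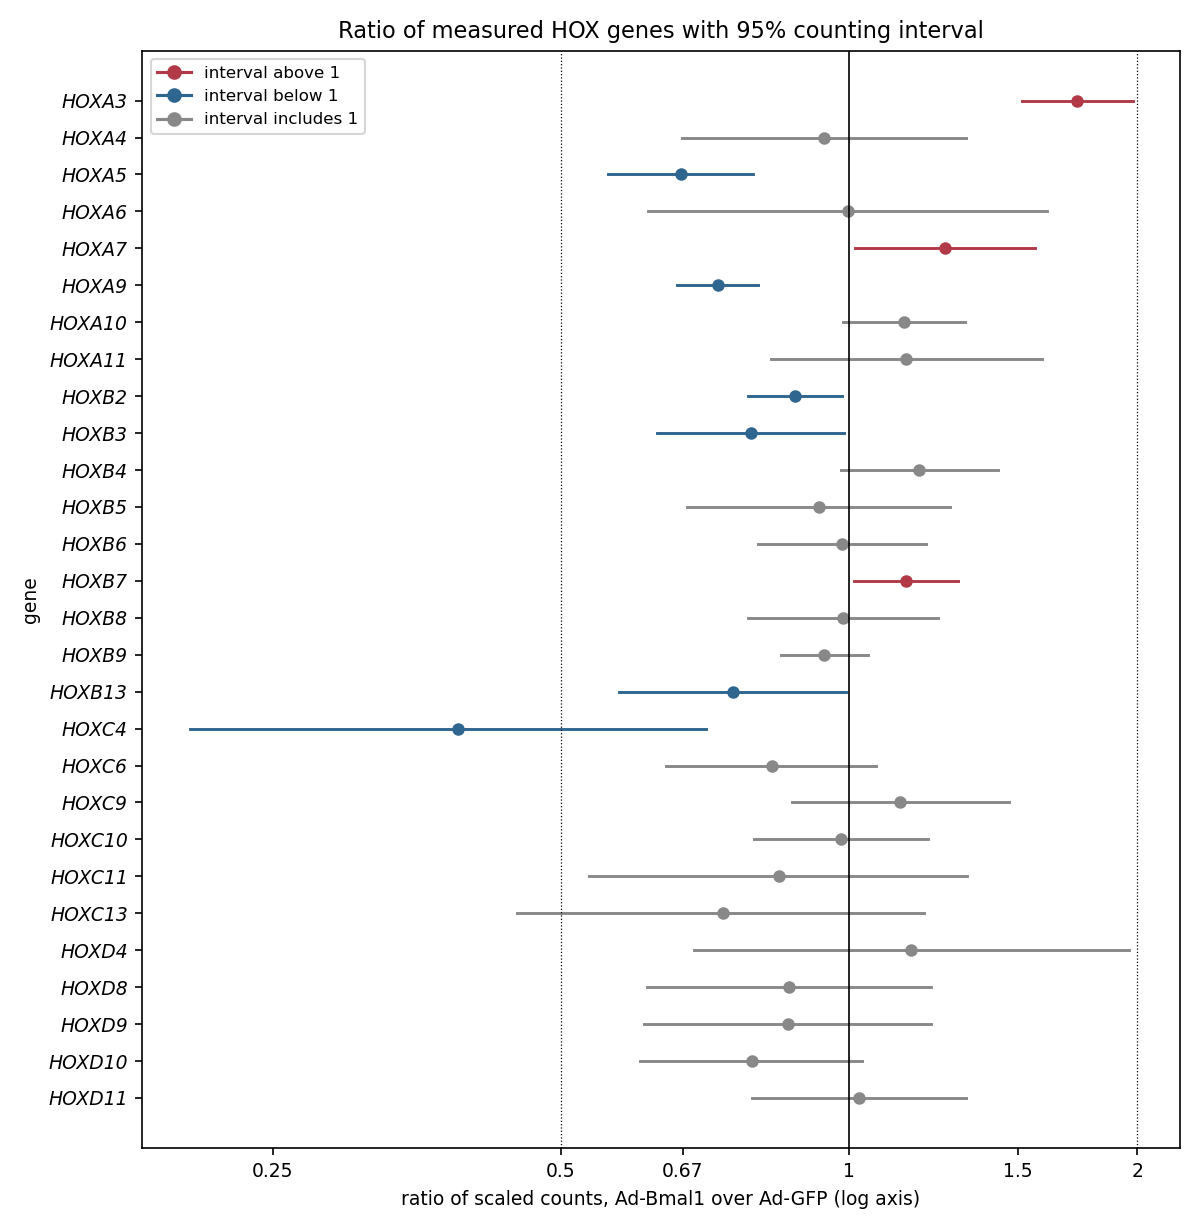
Ratio of scaled counts, the library labelled Ad-Bmal1 over the library labelled Ad-GFP (log axis), for 28 of the 29 measured HOX genes, 1 library per group. Points are ratios and bars exact 95% intervals for counting error; HOXA3 (1.73) lies at the high end and HOXC4 (0.390) at the low end, while 19 intervals cross 1; dotted lines mark 2-fold.

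Levels were compared between members as CPM per kilobase of the longest coding transcript. In Ad-GFP HOXA9 stood highest at 24.4, followed by HOXB2 at 20.9, HOXB7 at 17.2, HOXB9 at 14.2, HOXA5 at 10.0, HOXA10 at 6.76 and HOXA3 at 5.23 CPM per kilobase. Counting intervals separated neighbours in the order of these 7, and no neighbours further down. In Ad-Bmal1 HOXB7 came to 19.8, HOXB2 to 18.4 and HOXA9 to 17.8 CPM per kilobase, and these 3 were not separated. HOXB9 followed at 13.4, and then HOXA3 at 9.05, HOXA10 at 7.71 and HOXA5 at 6.67 CPM per kilobase, again without separation among the last 3. HOXA9 was thus above every other member in Ad-GFP and not in Ad-Bmal1, also with lengths from the union of all exons. The order below or around it depended on the length used. With union lengths HOXB2 moved from place 2 to place 4 in Ad-GFP, behind HOXB7 and HOXB9. In Ad-Bmal1 HOXB9 moved from place 4 to place 2, ahead of HOXB2 and HOXA9, and HOXB7 stayed highest. HOXA5 and HOXA10, not separated in Ad-Bmal1, also exchanged places there. Separation of neighbours was not tested with union lengths. At the other end, HOXB1 (a hindbrain gene), HOXC12 and HOXD13 (a gene of the digits) had no count in either library, which allows up to 0.148 CPM in Ad-GFP and 0.151 CPM in Ad-Bmal1. The 7 members with counts but under the minimum were HOXA2, HOXA13, HOXC5, HOXC8, HOXD1, HOXD3 and HOXD12, with 1 to 18 counts in Ad-GFP and 1 to 19 in Ad-Bmal1. Of the exon bases of HOXD3, HOXC5 and HOXD1, 74.1%, 59.9% and 58.1% are also annotated in another gene, while HOXA2, HOXC8 and HOXD12 share none. How reads in shared bases were counted is not given in the sources used here, and the levels per kilobase make no allowance for it. The highest levels thus came from the HOXA and HOXB clusters, and the HOXC and HOXD members were at or below 4.82 CPM per kilobase in both libraries.

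**Figure D2:**
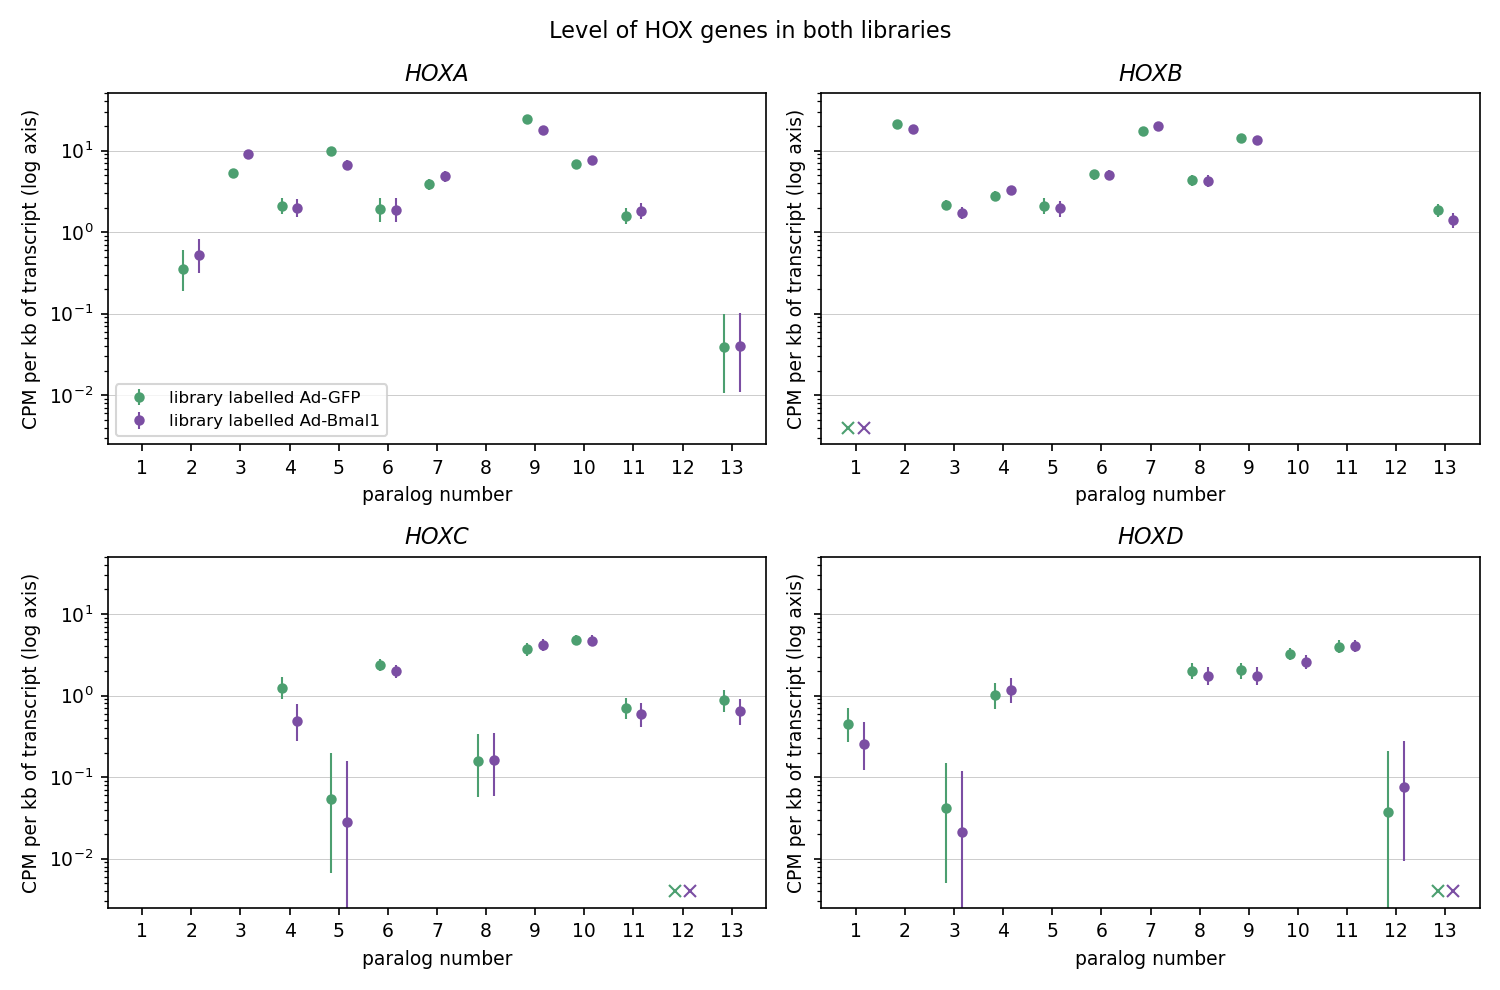
Level of the HOX genes in the 2 libraries, in CPM per kilobase of the longest coding transcript on a log axis, arranged by cluster and paralog number; bars are 95% Poisson intervals and crosses mark members without a count. HOXA9, HOXB2, HOXB7 and HOXB9 stand highest in both libraries, and HOXB1, HOXC12 and HOXD13 have no count. A measured member that is not reported here is not drawn.

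BMAL1 and CLOCK bind the E-box CACGTG, so the promoters of the members were read for it. The RefSeq promoter windows (GRCh38.p14), which run from 250 bases before to 50 after a start, covered 20 of the 39 members with 26 distinct windows. The 4 windows shown belong to members with a clear difference and a window (HOXA9, HOXC4 and HOXA3; HOXA5 is not in the table) or to the member with the E-box nearest its start (HOXA7). They are written 5′ to 3′ on the strand of the gene. Capitals mark an E-box, CACGTG, or in HOXC4 the related CACGTT, here as its reverse complement AACGTG, and HOXA3's outermost window holds neither. The windows are chr7:27165488-27165787 (minus strand) for HOXA9, chr7:27156626-27156925 (minus) for HOXA7, chr12:54016638-54016937 (plus) for HOXC4 and chr7:27152534-27152833 (minus) for HOXA3.
HOXA9: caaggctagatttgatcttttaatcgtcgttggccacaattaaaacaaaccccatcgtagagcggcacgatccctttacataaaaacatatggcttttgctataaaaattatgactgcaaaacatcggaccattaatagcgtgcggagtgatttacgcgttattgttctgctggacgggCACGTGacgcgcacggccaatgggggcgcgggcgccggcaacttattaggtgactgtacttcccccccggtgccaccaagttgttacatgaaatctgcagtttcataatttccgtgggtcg
HOXA7: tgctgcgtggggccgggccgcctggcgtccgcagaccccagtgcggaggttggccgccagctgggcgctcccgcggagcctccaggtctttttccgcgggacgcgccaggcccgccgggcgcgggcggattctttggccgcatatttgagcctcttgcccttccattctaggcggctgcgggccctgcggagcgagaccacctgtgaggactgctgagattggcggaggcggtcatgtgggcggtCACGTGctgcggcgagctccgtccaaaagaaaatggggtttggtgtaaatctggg
HOXC4: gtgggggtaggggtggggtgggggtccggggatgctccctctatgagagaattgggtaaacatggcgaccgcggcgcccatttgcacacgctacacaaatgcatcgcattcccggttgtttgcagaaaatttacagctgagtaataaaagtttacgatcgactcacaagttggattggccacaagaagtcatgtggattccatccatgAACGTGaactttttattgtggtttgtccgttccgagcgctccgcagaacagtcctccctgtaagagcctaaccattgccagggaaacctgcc
HOXA3: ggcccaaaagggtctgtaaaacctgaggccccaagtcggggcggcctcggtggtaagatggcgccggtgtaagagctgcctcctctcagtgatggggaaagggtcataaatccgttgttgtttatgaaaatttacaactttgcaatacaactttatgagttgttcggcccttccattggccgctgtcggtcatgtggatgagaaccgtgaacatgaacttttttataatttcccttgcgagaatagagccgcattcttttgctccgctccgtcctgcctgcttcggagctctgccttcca

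The E-box of HOXA9 began 71 bases before the start, that of HOXA7 5 bases before it, and the CACGTT of HOXC4 42 bases before it. These starts are those of RefSeq. The 50 bases from the start on were found in a GENCODE transcript of the gene for HOXA7, but not for HOXA9, HOXC4 or the HOXA3 window shown. The HOXC4 window is also the one RefSeq gives for HOXC5. Searched on both strands, CACGTG was present in 9 of the 26 HOX windows (34.6%) and in 7.23% of all 34943 promoter windows of that length. HOX windows were richer in CpG, with a median observed-to-expected CpG ratio of 0.855 against 0.577. Among windows with a ratio of at least 0.6, the E-box was in 8 of 21 HOX windows (38.1%) and in 10.0% of all. The measured genes with an E-box in a window went both ways, with ratios of 0.729 for HOXA9, 0.791 for HOXD10, 0.941 for HOXA4, 1.02 for HOXD11, 1.26 for HOXA7 and 1.73 for HOXA3, whose E-box was in 1 of its 7 windows. CACGTT was in 2 of the 26 windows (7.69%), against 5.35% of all. The letters TGATTNAT, a HOX-PBX site, were also in 2 (2.82% of all), the CCAAT box in 17 (65.4%, against 34.6% of all) and TATAAA in 5 (19.2%, against 11.6%). CCAAT lay 55 bases before the start in HOXA9, between the E-box and the start, and 32 bases before it in HOXA7. A match is a description of letters and not of binding.

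The HOXA cluster on chromosome 7 held both the largest higher and, by counts, the largest lower differences. Its paralogs 4 to 8 went from 606 counts to 518 (ratio 0.875, interval 0.776 to 0.985) and paralogs 9 to 13 from 1444 to 1200 (0.850, 0.787 to 0.919), while HOXA3 lay on the other side of 1. In each of these sums the lower counts came from a single gene, HOXA5 in the middle and HOXA9 at the 5′ end. HOXA2, which patterns the second pharyngeal arch, was under the minimum with 13 and 19 counts. HOXA3, needed for thymus and parathyroid (ENSG00000105997, chr7:27106184-27152581 in GRCh38), had 360 and 609 counts, a ratio of 1.73 (1.52 to 1.98). HOXA3 was thus higher in Ad-Bmal1, by the widest margin of any measured member in that direction. Part of the exon bases of HOXA3 (17.9%) is also annotated in another gene, and the sources used here do not say whether counting used strand. Adding its antisense neighbours HOXA-AS2 and HOXA-AS3 gave 602 and 813 counts, a ratio of 1.38 (1.24 to 1.54).

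In the middle of the HOXA cluster, HOXA5 was lower. HOXA5, which acts in the lung and airway (ENSG00000106004, chr7:27141052-27143668), had 336 counts in Ad-GFP and 219 in Ad-Bmal1, a ratio of 0.667 (interval 0.560 to 0.793), with no exon base shared with another gene. Its neighbours HOXA4 (75 and 69 counts, ratio 0.941, 0.669 to 1.32) and HOXA6 (38 and 37 counts, ratio 0.996, 0.616 to 1.61) had intervals that included 1, and 47.3% and 40.1% of their exon bases are shared. HOXA7 was higher by a small margin, with 157 and 193 counts (1.26, 1.01 to 1.56). Its interval reached 1 when libraries were scaled by total counts (1.23, 0.990 to 1.53), and also when its counts were added to those of HOXA-AS3, whose exons cover 62.5% of HOXA7's on the other strand (186 and 215 counts, ratio 1.18, 0.967 to 1.45).

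At the 5′ end, HOXA9 carried most of the lower HOXA counts. HOXA9, a regulator of blood stem cells and the best known HOX gene of leukaemia (ENSG00000078399, chr7:27162435-27175180), had 1018 counts in Ad-GFP and 725 in Ad-Bmal1, a ratio of 0.729 (interval 0.662 to 0.802). Adding the overlapping HOXA10-AS left it at 0.737 (0.671 to 0.810). HOXA10 and HOXA11, which act in the kidney, uterus and limb, had ratios above 1 with intervals that included it. HOXA10 had 348 and 388 counts (1.14, 0.985 to 1.32) and HOXA11 74 and 83 counts (1.15, 0.829 to 1.59). HOXA13, a gene of the hand, foot and genital tubercle, had 4 counts in each library.

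**Figure D3:**
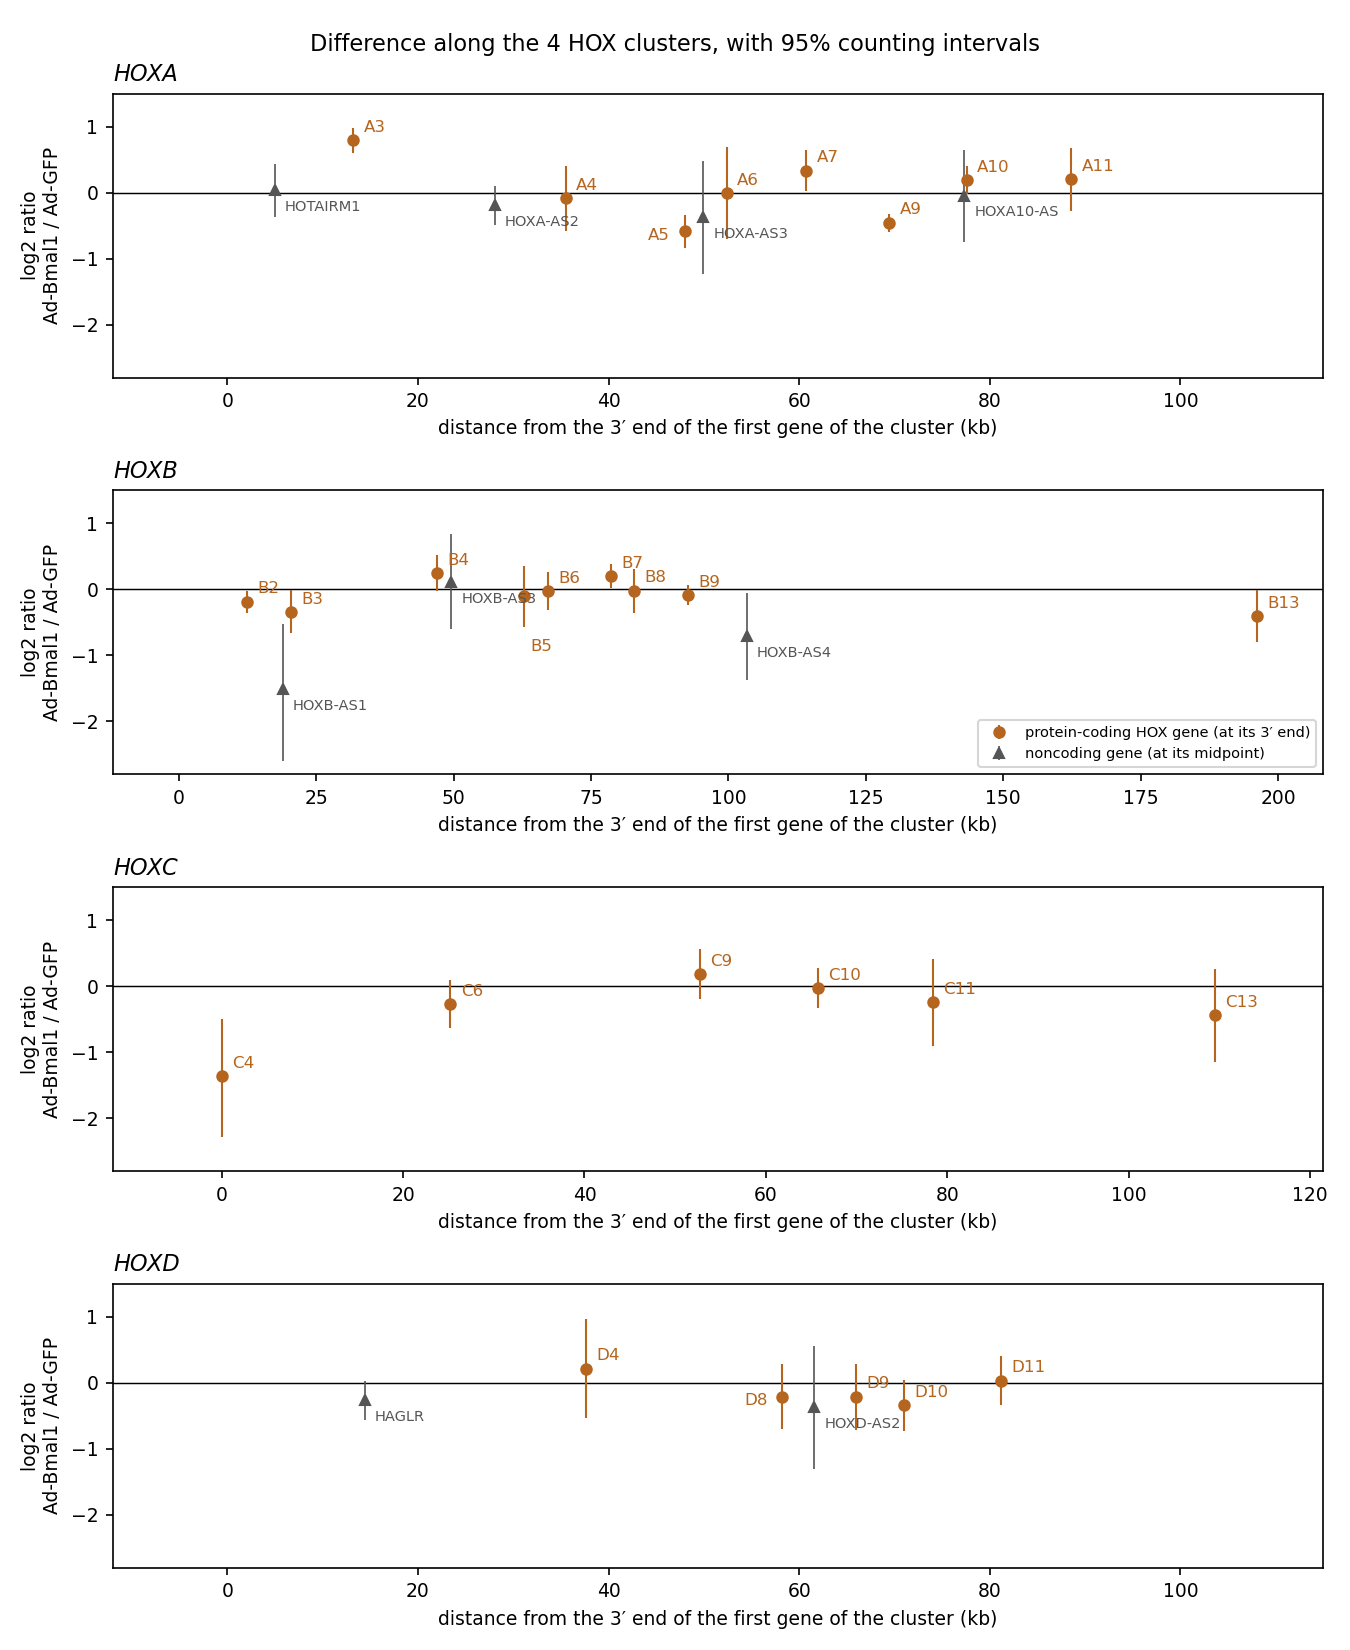
Log2 ratio of 28 of the 29 measured HOX genes (circles; bars are exact 95% intervals for counting error) and noncoding gene (triangles, at the midpoint) against distance along the cluster from the 3′ end of its first gene, in kilobases, with 1 library per group. In the HOXA panel HOXA3 lies above 0 and HOXA5 and HOXA9 below it; in the HOXB panel HOXB13 stands 103.6 kb beyond HOXB9.

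The HOXB cluster on chromosome 17 was lower at its 3′ end. It summed to 2857 and 2697 counts (ratio 0.966, interval 0.916 to 1.02), with paralogs 1 to 3 at 846 and 710 counts (0.859, 0.776 to 0.95). HOXB2, a hindbrain gene (chr17:48540894-48544989), had 662 and 568 counts (0.878, 0.783 to 0.984), and with the length trend removed its interval included 1 (0.935, 0.835 to 1.05). HOXB3 had 184 and 142 counts (0.790, 0.630 to 0.988), in the direction opposite to its paralog HOXA3, whose interval of 1.52 to 1.98 it did not meet. HOXB4, known for expanding blood stem cells, had 210 and 243 counts (1.18, 0.980 to 1.43). HOXB3 shares exon bases with HOXB4 and with HOXB6, and the sum of these 3 genes was nearly level, with 596 and 579 counts (0.994, 0.885 to 1.12).

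The middle of HOXB differed little between the libraries. HOXB5 had 87 and 79 counts (0.929, 0.676 to 1.27), HOXB6 202 and 194 (0.983, 0.803 to 1.20) and HOXB8, a gene of myeloid progenitors, 159 and 153 (0.985, 0.783 to 1.24). HOXB7 (chr17:48607227-48633572) had 479 and 537 counts (1.15, 1.01 to 1.30), but under total-count scaling its interval included 1 (1.12, 0.988 to 1.27). HOXB7 and its paralog HOXA7 together had 636 and 730 counts (1.17, 1.05 to 1.31). HOXB9 had 744 and 685 counts (0.942, 0.848 to 1.05), where its paralog HOXA9 was at 0.729. HOXB13, best known from the prostate and hindgut (chr17:48724763-48729178), was detected although its 3′ end lies 103.6 kb beyond that of HOXB9. It had 130 and 96 counts (0.756, 0.574 to 0.991) and shares no exon base with another gene.

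HOXC4 was the member with the largest difference of all, on few counts. In the HOXC cluster on chromosome 12 (585 and 515 counts, ratio 0.901, interval 0.799 to 1.02), HOXC4 (ENSG00000198353, chr12:54016931-54056030) had 42 counts in Ad-GFP and 16 in Ad-Bmal1. It was 2.57-fold lower (1.41 to 4.89) and reached 1 CPM in Ad-GFP alone. HOXC4 and HOXC6 share exon bases (17.8% of those of HOXC4), and HOXC6 itself had 143 and 116 counts (0.830, 0.644 to 1.07). Their sum, 185 and 132 counts, was at 0.730 (0.579 to 0.918). The 5′ members were close to 1 or had wide intervals. HOXC9 had 114 and 126 counts (1.13, 0.871 to 1.47), HOXC10 189 and 181 (0.980, 0.795 to 1.21) and HOXC11 46 and 38 (0.845, 0.535 to 1.33). HOXC13, the gene of hair and nails, had 43 and 31 counts (0.738, 0.449 to 1.20). HOXC8 had 6 counts in each library, although it lies between HOXC6 and HOXC9.

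No HOXD member had an interval that excluded 1. The cluster, on chromosome 2, summed to 462 and 404 counts (0.895, 0.781 to 1.02). HOXD8 had 78 and 66 counts (0.866, 0.614 to 1.22), HOXD9 77 and 65 (0.864, 0.611 to 1.22) and HOXD10 132 and 102 (0.791, 0.605 to 1.03). HOXD11, a paralog of HOXA11 and HOXC11 on which the metanephros depends, had 124 counts in each library (1.02, 0.791 to 1.32). HOXD4 had 30 and 34 counts (1.16, 0.689 to 1.96), but 80.5% of its exon bases are shared with another annotated gene.

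Summed across clusters, several of the paralog sums mixed members that differed in opposite directions or rested mostly on a single gene. Paralogs 9 to 13 had 3044 and 2650 counts (0.891, interval 0.845 to 0.939), but without HOXA9 they had 2026 and 1925 (0.972, 0.913 to 1.04). Of their 12 measured members, only HOXA9 and HOXB13 had intervals below 1, and 4 had ratios above 1. Group 9 likewise went from 1953 counts to 1601 (0.839, 0.785 to 0.897) with HOXA9 and from 935 to 876 (0.959, 0.873 to 1.05) without it. Paralogs 4 to 8 had 2044 and 1963 counts (0.983, 0.923 to 1.05), a sum of HOXA at 0.875 (0.776 to 0.985), HOXC at 0.737 (0.588 to 0.921), HOXB at 1.09 (1.00 to 1.18) and HOXD at 0.947 (0.714 to 1.26). At the 3′ end the sum over paralogs 1 to 3 is not reported here. Group 3 had 546 and 752 counts (1.41, 1.26 to 1.58), which came from HOXA3 while HOXB3 was lower, and group 2 had 675 and 587 (0.890, 0.795 to 0.995), nearly all from HOXB2. Group 5 had 425 and 299 counts (0.720, 0.619 to 0.837), mostly from HOXA5. The kidney paralogs were level, with 669 and 671 counts in group 10 (1.03, 0.921 to 1.14) and 244 and 245 in group 11 (1.03, 0.857 to 1.23). Group 13 had 177 and 131 counts (0.757, 0.599 to 0.955), nearly all from HOXB13 and HOXC13.

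The noncoding RNAs of the clusters were read beside the genes they lie next to. Of 18 listed, 9 were measured; none had an interval above 1 and 2 had one below it, HOXB-AS1 and HOXB-AS4, and the median log2 ratio was -0.26. Of all measured genes, 23.8% had an interval above 1 and 21.6% had one below it, so the count below 1 is near the background. The 2-fold rule was met by HOXB-AS1 alone, which was lower (1.74% of all measured genes were). HOXB-AS1, antisense in the 3′ part of HOXB, had 35 and 12 counts and was 2.85-fold lower (1.44 to 6.03), being measured through Ad-GFP alone. HOXB-AS4 had 55 and 33 counts (0.614, 0.386 to 0.962). HOTAIRM1, at the 3′ end of HOXA, had 104 counts in each library (1.02, 0.772 to 1.36). HOXA-AS2, beside HOXA3, had 213 and 182 counts (0.874, 0.713 to 1.07), and HAGLR, beside HOXD1, 217 and 177 (0.835, 0.680 to 1.02). HOTTIP, at the 5′ end of HOXA, had no count, and HOTAIR, in HOXC, had 0 and 1.

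The clusters also hold microRNA genes, whose mature sequences are given because the HOX transcripts carry matches to their seeds (RefSeq, GRCh38.p14). The capitals are the seed, bases 2 to 8.
hsa-miR-196a-5p: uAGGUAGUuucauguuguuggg
hsa-miR-196b-5p: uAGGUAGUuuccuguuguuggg
hsa-miR-10a-5p: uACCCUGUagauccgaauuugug

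miR-196a and miR-196b share the seed AGGUAGU and miR-10a has ACCCUGU. The letters ACTACCTA, which pair with the seed of miR-196 and the base before it, were found on the sense strand of the longest coding transcript of 6 of 39 HOX genes (15.4%) and of 517 of 19922 genes (2.60%). They were HOXA5, HOXA9, HOXB6, HOXB7 and HOXC8 with 1 match each and HOXA7 with 4. The letters ACAGGGTA for miR-10a were in HOXA3 and HOXB3 (5.13%, against 3.13% of all). For the other 7 seeds of these microRNAs the share among HOX genes ran on both sides of the share among all. It was above for miR-615-3p (7.69% against 3.99%), miR-10a-3p (2.56% against 0.969%), miR-196b-3p (2.56% against 1.64%) and miR-615-5p (12.8% against 11.8%). It was below for miR-10b-3p (2.56% against 8.41%), miR-196a-3p (2.56% against 7.80%) and miR-196a-1-3p (0 against 6.20%). Measured members with a miR-196 match went both ways, from 0.667 for HOXA5 to 1.26 for HOXA7. The whole transcript was searched, and the mature microRNAs are not measured by messenger RNA libraries. Of the microRNA genes themselves, MIR196A1 had 8 and 10 counts, MIR10B 0 and 1, and the other 4 had none.

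Genes outside the clusters were taken from lists of HOX partners and regulators. Of the 12 genes flanking the clusters 7 were measured, of which 6 had ratios below 1 (median log2 ratio -0.16) and none differed by 2-fold. Of all measured genes, 49.6% had ratios below 1. Intervals lay below 1 for 4 (21.6% of all measured genes), HIBADH at 0.758, SKAP1 at 0.767, CALCOCO1 at 0.768 and MTX2 at 0.892, and with the length trend removed that of MTX2 included 1 (0.951, 0.861 to 1.05). SMUG1 was at 1.03 (0.932 to 1.14). Of 9 TALE cofactors 7 were measured, with 3 intervals above 1 and 2 below (23.8% and 21.6% of all measured genes) and a median of -0.04. PBX2, a partner that HOX proteins bind DNA with, had 1496 and 1618 counts (1.11, 1.03 to 1.19) and MEIS3 1088 and 922 (0.867, 0.793 to 0.947). MEIS1 had 13 and 29 counts and was 2.28-fold higher (1.15 to 4.78), being measured through Ad-Bmal1 alone. PBX3 was at 1.42 (1.27 to 1.60) and PKNOX1 at 0.599 (0.504 to 0.710), so members of the TALE family differed in opposite directions.

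The trithorax and MLL genes, which keep HOX genes active, had more higher than lower members. All 17 were measured, 8 with intervals above 1 and 3 below (23.8% and 21.6% of all measured genes), none by 2-fold, with a median log2 ratio of 0.23. KMT2A, the MLL gene itself, had 380 and 726 counts (1.95, 1.72 to 2.22), KMT2D 1163 and 2045 (1.80, 1.67 to 1.94) and KMT2B 891 and 1351 (1.55, 1.42 to 1.69). KMT2C had 66 and 101 counts (1.57, 1.14 to 2.17). These 4 are long transcripts, and with the trend on transcript length removed their ratios were 1.63, 1.5, 1.37 and 1.31, and the list median 0.14. The interval of KMT2C then included 1 (0.95 to 1.81), and the list had 7 intervals above 1 and 4 below. WDR5 (0.890, 0.837 to 0.946) and MLLT1 (0.960, 0.905 to 1.02), the members with the most counts, were not higher. Of the 23 Polycomb genes, which hold HOX genes silent, all were measured, with 5 intervals above 1 and 4 below (23.8% and 21.6% of all measured genes) and a median of 0.02, which changed sign to -0.04 with the length trend removed. RBBP7 was at 1.05 (1.01 to 1.09), CBX6 at 1.20 (1.14 to 1.26) and PHC2 at 0.518 (0.490 to 0.549), from 3561 to 1804 counts.

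Of 18 retinoic acid genes, the pathway that switches on 3′ HOX genes in the embryo, 12 were measured, with 1 interval above 1 and 2 below (23.8% and 21.6% of all measured genes), no more than the background, and a median of 0.03. The receptors RXRA (0.939, 0.870 to 1.01) and RXRB (1.02, 0.953 to 1.09) were near 1, and RARB had no count. CDX1, CDX2 and CDX4, which act upstream of the trunk HOX genes, had no count, and GDF11 had 555 and 700 counts (1.29, 1.15 to 1.45). Of 15 nephric lineage factors 8 were measured, 4 with intervals above 1 and 1 below (23.8% and 21.6% of all measured genes). PAX8, which specifies the nephric lineage, had 6502 and 8529 counts (1.34, 1.30 to 1.39) and GDNF, a gene that HOX11 proteins act on in the metanephros, 624 and 488 (0.80, 0.709 to 0.902). HOXB-AS4, PBX3, PKNOX1, PHC2, GDF11, GDNF, the KMT2 genes and those flanking genes with intervals below 1 were named after their values were seen.

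**Figure D4:**
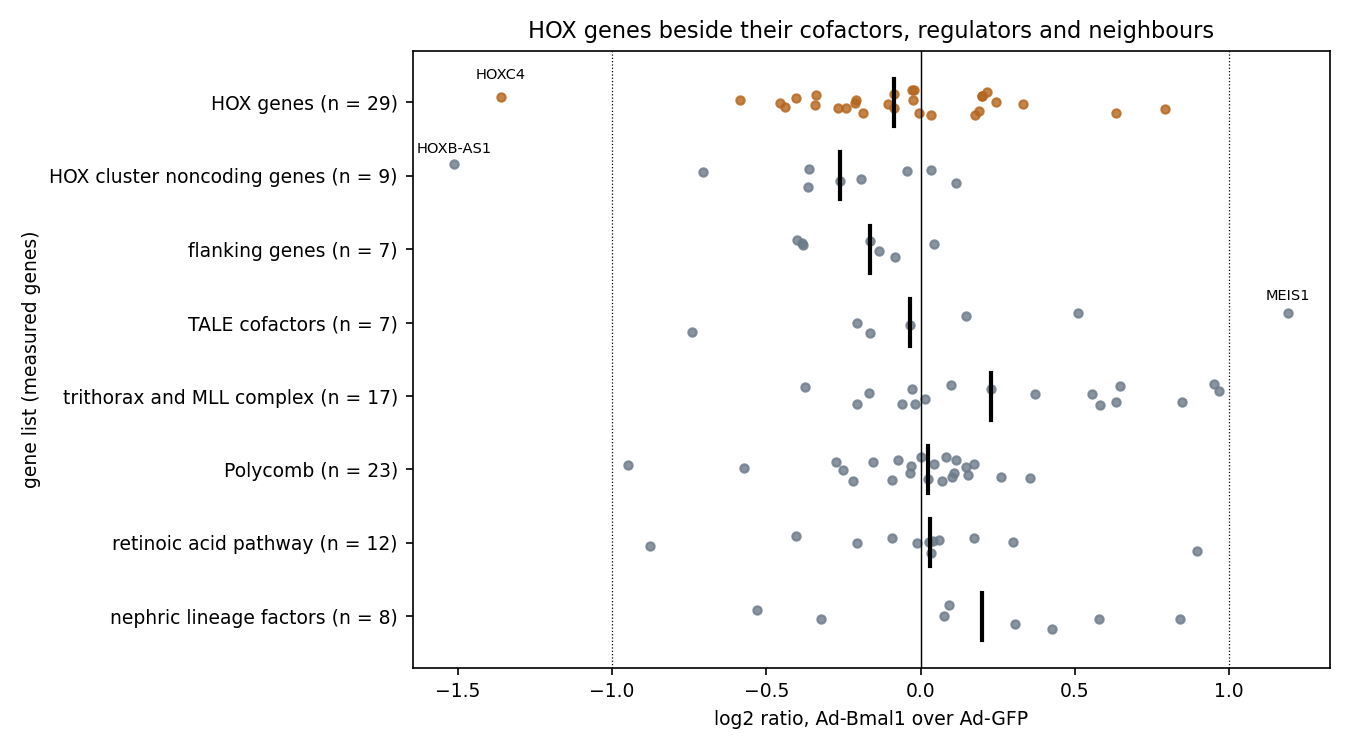
Log2 ratio of every measured gene in the HOX clusters and in the lists of noncoding, flanking, cofactor and regulator genes (points, 1 library per group), with each list's median as a line. HOX genes centre on -0.09 and the trithorax and MLL genes on 0.23.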

How the data were processed

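Messenger RNA was measured in 2 libraries of HK-2 cells, 1 per group, prepared from poly(A)+ RNA and read as pairs of 150 bases, per the labels' protocols. The authors deposited raw counts per Ensembl gene. Per the submitters' processing notes the tools and builds were HISAT2 and GRCh38 (hg38); what counted the reads, with which annotation and strand setting, is not given in the sources used here. No column of per-sample values was left unused (0). Of the 58302 identifiers, 58039 (99.5%) were found in GENCODE v29, which gave GRCh38 coordinates, transcript lengths and exon overlaps. Symbols came from a separate list of gene names for the 57532 identifiers it held, and otherwise from GENCODE v29.

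Counts were scaled with TMM factors of 1.01 and 0.988 (edgeR 4.0.16 in R 4.3.3). Ratios and exact Clopper-Pearson intervals were computed in Python 3.11.15 with scipy 1.17.1, and the code was tested on simulated data. Intervals and the limit of 3 counts for a gene at 0 cover counting error only, because reads were not tagged by molecule and can repeat 1 molecule. No test model could be fitted with 1 library per group, so no p-value is given. The size rule for calling a measured gene higher or lower was a 2-fold ratio or more together with an interval excluding 1.

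Every HOX gene that reached 1 CPM is given its counts, except a member that is not reported here; it stays in the counts over all members. From each other list, members past that size and the 2 with the highest mean count are named where reported here, together with genes stated to be chosen after their values were seen. Named outside these rules were, among others, HOTAIRM1, HOTTIP, HOTAIR, RARB, the CDX genes and the microRNA genes. The members and lists were chosen with earlier results of these data known. Alternatives covered scaling (upper quartile, total counts, size factors of DESeq2 1.42.0, totals without mitochondrial genes and the 20 most abundant genes), thinning to equal depth, filters, sizes, a prior count of 2 and transcript length. Removal of the length trend and the restriction to members sharing no exon base were chosen after seeing the data.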

Additional observations from a re-analysis of the deposited data

How the results depend on the processing

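With 1 library per group no library could be left out, and no spread between cultures is known; depth limits members with few counts, such as HOXC4 (42 and 16), to wide intervals. No paired analysis was possible because each group is 1 library. The sample titles carry no replicate numbers, while the count columns are headed BGFP_2 (Ad-GFP) and bmal1_1 (Ad-Bmal1). Whether these endings number replicates or cultures is not given in the sources used here. No result changed direction among those with an interval excluding 1. Over all genes, 149 higher and 230 lower became 292 and 399 without a filter, 21 and 38 at 10 CPM, 583 and 648 at 1.5-fold, 12 and 20 at 4-fold, and 23 and 28 with the interval wholly beyond 2-fold. The 1 lower HOX gene became 0 at 10 CPM, at 4-fold, with the interval beyond 2-fold and over members sharing no exon base; 2 HOX genes were higher at 1.5-fold. The 4 HOX intervals above 1 became 2 with total counts, with DESeq2 size factors and with totals lacking mitochondrial and the 20 most abundant genes, since those of HOXA7 and HOXB7 then included 1, and 1 over members sharing no exon base. The 6 below 1 became 3 at 10 CPM and 2 over members sharing no exon base. The HOX median of -0.09 became 0.19 at 10 CPM, -0.0016 with the length trend removed and -0.21 over members sharing no exon base. With that trend removed the interval of HOXA10 excluded 1 (1.18, 1.02 to 1.36). Lengths from the union of exons kept 10 of the 10 highest HOX levels in Ad-GFP and 9 of 10 in Ad-Bmal1.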
